A study of Saccharomyces cerevisiae with 30 samples.

Results

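Small nucleolar RNAs (snoRNAs) and the spliceosomal small nuclear RNAs (snRNAs) are the stable non-coding RNAs whose rows in the Yeast Cell Cycle 2 dataset have an identifier that begins with snR. Of 81 such features, 44 were above 0 TPM at 1 or more time points, and these 44 are the members described here, out of 7127 features in all. TPM are transcripts in 1000000, a level per unit length, and sum to that number at each time point. By class, 11 members are box C/D snoRNAs, 28 are box H/ACA snoRNAs and 5 are spliceosomal snRNAs. The other 37 features were listed at 0 TPM at every time point.

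The dataset follows 1 culture of a Saccharomyces cerevisiae BF264-15D MATa bar1 strain, grown in YEPDextrose at 38.5°C throughout. Cells were arrested in G1 with alpha-factor for 150 min and released, and 1 library was made at each of 30 time points from 0 to 290 min, every 10 min. No other strain or temperature and no repeat library enters this description, so a difference between time points has no replicate error, no p-value is given, and counts are read against all features and against the rest of the series. Of 5 genes that mark MATa cells, STE2, STE6 and AGA2 were above 0 throughout, with lowest values of 164, 35.7 and 306 TPM, while MFA1 and MFA2 were listed at 0 at some time points, which were most of them for MFA1. Of 3 genes that mark MATalpha cells, MF(ALPHA)1 and STE3 reached 5.09 and 8.49 TPM and MF(ALPHA)2 ranged from 14.4 to 22.2 TPM. BAR1 was listed at 0 TPM at every time point.

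Box C/D snoRNAs guide methylation of ribosomal RNA by the Nop1 complex, and box H/ACA snoRNAs guide the change of uridine to pseudouridine by the Cbf5 complex. A few members of each class act instead in cutting the ribosomal RNA precursor. The spliceosomal snRNAs form the cores of the particles that remove introns. The mature forms of all these RNAs lack a poly(A) tail, and the library kit named in the labels is one for mRNA, so the TPM of a member need not scale with the amount of its mature form.

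The features differ first in length, and the sequences that mark the contrasts below are given here from the R64 genome, 5′ to 3′ on the RNA strand. For C/D members, capitals mark a C box core (TGATGA) in the first 15 bases and a D box (CTGA) in the last 15. For H/ACA members, capitals mark an ACA placed 3 bases before the 3′ end. The most abundant members were snR4 (chrV:424698-424883, plus strand) and snR128, the U14 RNA (chrX:139566-139691, minus strand). The neighbour of snR128 is snR190 (chrX:139761-139950, minus strand).
snR4: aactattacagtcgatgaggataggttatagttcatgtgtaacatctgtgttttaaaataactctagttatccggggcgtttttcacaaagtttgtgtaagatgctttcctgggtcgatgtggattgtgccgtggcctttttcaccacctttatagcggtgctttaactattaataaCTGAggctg
snR128: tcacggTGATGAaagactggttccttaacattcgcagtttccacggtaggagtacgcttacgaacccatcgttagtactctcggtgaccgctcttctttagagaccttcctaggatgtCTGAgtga
snR190: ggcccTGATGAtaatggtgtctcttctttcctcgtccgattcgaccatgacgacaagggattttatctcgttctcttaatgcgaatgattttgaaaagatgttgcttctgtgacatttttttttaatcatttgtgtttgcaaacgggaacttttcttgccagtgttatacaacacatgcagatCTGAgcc
At the length where detection began stand snR13 (chrIV:1402919-1403042, plus strand), a member, and snR48 (chrVII:609584-609696, plus strand), which was listed at 0 throughout.
snR13: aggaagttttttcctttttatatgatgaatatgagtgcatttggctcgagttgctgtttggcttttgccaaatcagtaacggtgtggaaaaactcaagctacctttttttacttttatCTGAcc
snR48: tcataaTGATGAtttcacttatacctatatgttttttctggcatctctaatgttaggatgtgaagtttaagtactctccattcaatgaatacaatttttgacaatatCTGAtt
Among H/ACA features of similar length, snR33 (chrIII:142364-142546, minus strand) was the most abundant and snR80 (chrV:52150-52320, minus strand) was listed at 0 throughout.
snR33: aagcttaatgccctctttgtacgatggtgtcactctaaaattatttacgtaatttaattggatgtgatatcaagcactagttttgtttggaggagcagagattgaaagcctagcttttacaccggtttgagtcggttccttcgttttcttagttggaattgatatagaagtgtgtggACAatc
snR80: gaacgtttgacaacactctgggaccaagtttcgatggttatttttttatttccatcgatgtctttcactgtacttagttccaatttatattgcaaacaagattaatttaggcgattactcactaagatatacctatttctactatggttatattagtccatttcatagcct
The U5 snRNA is annotated in a long and a short form with the same start, and capitals mark the 35 bases that snR7-L (chrVII:939459-939672, minus strand) has beyond snR7-S. The U6 snRNA, snR6 (chrXII:366235-366346, plus strand), is the shortest snRNA.
snR7-L: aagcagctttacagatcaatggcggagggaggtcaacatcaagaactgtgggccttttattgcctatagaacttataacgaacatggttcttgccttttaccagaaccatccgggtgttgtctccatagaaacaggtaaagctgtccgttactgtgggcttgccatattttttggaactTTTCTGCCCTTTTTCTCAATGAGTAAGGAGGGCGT
snR6: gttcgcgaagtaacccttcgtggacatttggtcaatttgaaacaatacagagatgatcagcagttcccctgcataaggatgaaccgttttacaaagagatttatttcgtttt
Both C/D boxes were found in these windows in 36 of 47 C/D features and in 0.0671% of 5957 protein-coding genes of at least 150 bases. The ACA stood 3 bases from the end in 14 of 29 H/ACA features and in 1.12% of those genes.

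Annotated length separated the features that were measured from those at 0. The shortest R64 feature above 0 at any time point had 108 bases, and that length was read from the data. All 34 snR features of at most 107 bases were at 0 TPM throughout, and so were all 51 other R64 features of that length and all 299 tRNA features of the table. Between 108 and 140 bases, 5 of 7 snR features were above 0 at some time point, against 26 of 35 other features. Between 141 and 200 bases the numbers were 17 of 18 and 61 of 77, and all 13 snR features of 201 to 300 bases and all 9 longer ones were members. The features at 0 were 36 C/D snoRNAs, with a median length of 93.5 bases, and 1 H/ACA snoRNA, snR80, of 171 bases. The 11 C/D members had a median length of 172 bases and the 28 H/ACA members 204 bases. Within the members, length and mean TPM were not related in rank (Spearman 0.00085 across 44 members, which share libraries), whereas the variation over time fell with length (Spearman -0.56 with the coefficient of variation). The part of read length, kit and quantification in this limit was not tested, and a feature at 0 here is not shown to be absent from the cells.

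**Figure D1:**
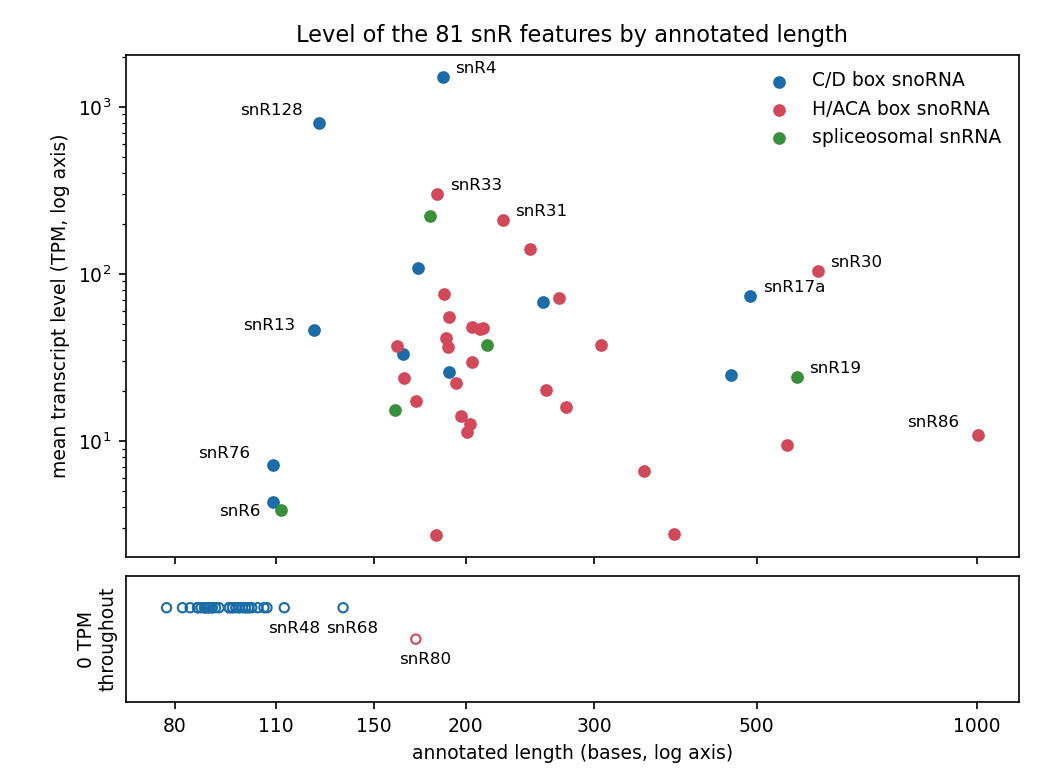
Mean transcript level over 30 time points (TPM, log axis) of the 44 members against annotated length (bases, log axis), with the 37 features at 0 TPM throughout in the lower strip, coloured by class. No feature of 107 bases or less is above 0, and snR48, snR68 and snR80 are the longer features at 0.

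The shortest members appeared at single time points. Both snR76 and snR87, of 109 bases, were above 0 at 70 min alone, at 216.5 and 129.9 TPM. U6 (112 bases) was above 0 at 70 and 150 min, at 68.9 and 46.8 TPM, and listed at 0 at the other 28. The protein-coding genes MFA1 and OST4, of 111 bases, were likewise above 0 at 70 and 150 min and at no other time point. In all, 5 of 18 other features of 108 to 120 bases were above 0 at 70 min and 6 at 150 min, against at most 4 at any other time point. At 124 bases, snR13 was at 0 at 8 time points, had a lowest value above 0 of 22.1 TPM and reached 157 TPM at 120 min. At 126 bases, U14 was never below 376 TPM. The appearance at 70 and 150 min was thus shared by short features of several kinds, and the values of snR6, snR76 and snR87 give no time course.

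Transcript levels of the members spanned a wide range, with 8 members at a mean of at least 100 TPM, 37 at 10 TPM or more and 7 below 10 TPM. Of the members, 35 were above 0 at all 30 time points. The C/D snoRNA snR4, which is known to guide acetylation of small-subunit ribosomal RNA, had the highest level, with a lowest value of 870.5 TPM at 20 min, a median of 1426 and a highest value of 2247 TPM at 150 min. U14 (snR128), which is needed to cut the ribosomal RNA precursor, ranged from 376 TPM at 20 min through a median of 823 to 1427 TPM at 200 min. Together snR4 and snR128 held 51.8% of the members' summed mean TPM. The next level down was formed by H/ACA guides and U5.

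The H/ACA snoRNA snR33, a guide for large-subunit ribosomal RNA, ranged from 150.2 to 529 TPM with a median of 304. The short U5 form snR7-S (chrVII:939494-939672, minus strand) ranged from 124 to 347 TPM with a median of 224. A guide for small-subunit ribosomal RNA, snR31 (chrXV:841958-842182, minus strand), ranged from 114 to 263.5 TPM with a median of 214, and snR10 (chrVII:345986-346230, plus strand), an H/ACA snoRNA that also acts in ribosomal RNA processing, from 91.9 to 191 TPM with a median of 140.1. The ranges of snR7-S and snR31 overlap for most of their length, while the mean of snR4 was 5.01 times that of snR33. At the other end, snR36 and snR37 had means of 2.75 and 2.77 TPM, so that snR33 and snR36, H/ACA features of 183 and 182 bases, differed 109-fold in mean level. By class, the C/D members held 60.6% of the summed mean, the H/ACA members 32.6% and the snRNAs 6.79%.

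Known processing RNAs did not share a level. Of the U3 genes, which encode the RNA of the particle that makes the first cuts in the ribosomal RNA precursor, snR17a had a mean of 73.8 TPM and snR17b of 24.7 TPM. Their ratio stayed between 2.12 and 4.80, with a median of 3.13, and their time courses had a Spearman correlation of 0.53. The copies are near-identical in their mature sequence, so the division of reads between them is uncertain. snR30 (chrXII:198784-199389, plus strand), an H/ACA RNA needed for small-subunit ribosomal RNA, had a median of 109 TPM. The longest member, snR86 (1004 bases), had a mean of 10.9 TPM.

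The snRNAs were uneven. U1 (snR19) ranged from 14.1 TPM at 160 min to 42.4 TPM at 0 min with a median of 23.3. U4 (snR14) was at 0 at 3 time points and reached 38.2 TPM at 180 min, with a median of 16.9. The U5 forms lie in the same place, and reads from the first 179 bases fit both, so their split is uncertain. snR7-S was 3.23 to 11.4 times snR7-L and the forms had a Spearman correlation of -0.22, while their sum ranged from 162 TPM at 10 min to 379 TPM at 140 min. U2, which the table lists as LSR1 and which is no member, had a mean of 145 TPM.

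**Figure D2:**
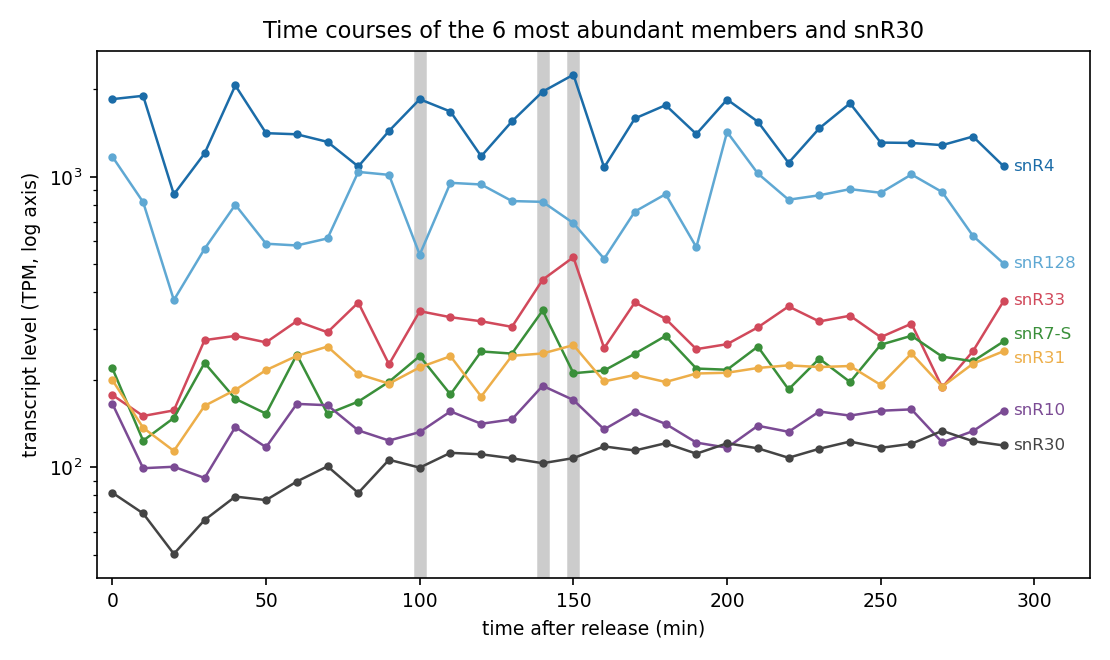
Transcript level (TPM, log axis) against time after release (min) for the 6 members with the highest mean and for snR30, with 1 library per point and grey bars at 100, 140 and 150 min. As deposited, snR4 and snR33 are highest at 150 min, whereas snR30 is lowest at 20 min (50.4 TPM) and highest at 270 min (134 TPM).

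Summed over the 44 members, the level was lowest at 20 min (2544 TPM), had a median of 4439 TPM and was highest at 150 min (6068 TPM). It stayed between 0.254% and 0.607% of all TPM. After median-of-ratios scaling, which divides each library by the median ratio of its features to their geometric means over time, it was also lowest at 20 min (2760), but highest at 0 min (6431). After scaling snR4 was highest at 10 min (2543) and snR128 at 0 min (1507). In bulk RNA, fewer cells with an RNA and less of it per cell cannot be told apart. As deposited, the fall at 20 min was present in all classes, since the C/D, H/ACA and snRNA sums were each lowest there. The sum of the U5 forms did not fall, at 162 TPM at 10 min and 168 TPM at 20 min. Class sums after scaling were not computed. The drop between 10 and 20 min was steep for snR4 (1901 to 870.5 TPM) and snR128 (819 to 376 TPM), while snR33 was at 150.2 and 157 TPM at these time points. Between 150 and 160 min the sum fell from 6068 to 3534 TPM, with snR4 falling from 2247 to 1077 TPM and snR33 from 529 to 257 TPM.

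Members moved more from library to library than most features did. Among the 37 members with a mean of at least 10 TPM, the coefficient of variation over time had a median of 31.4%, against 14.5% for all 5137 such features, and ranged from 13.2% for snR82 to 93.5% for snR13. Among features of 150 to 300 bases with means of 100 TPM or more, 6 members had a median of 22.1% and 96 other features 15.8%. At means of 30 to 100 TPM the medians were 32.6% for 12 members and 21.7% for 38 others of those lengths, and at 10 to 30 TPM 51.5% for 11 members and 36.6% for 15 others. The part of level and length in the spread was not tested beyond these values. Much of this movement was between neighbouring time points. The mean squared difference between successive time points, divided by the variance of log2(TPM + 1), is near 2 for values without order and near 0 for a smooth course. It had a median of 1.58 in the 44 members and of 1.01 in the 6369 features averaging 1 TPM or more. Of the members, 5 were below 1 (snR30, snR83, snR49, snR63 and snR31), against 49% of those features. After median-of-ratios scaling snR63 and snR31 stood at 1.08 and 1.25. The median of 1.58 includes snR6, snR76 and snR87, at 2.14, 2.07 and 2.07, which give no time course. In members with a mean of at least 10 TPM, which leaves these out, the median was 1.54.

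The smoothest course was that of snR30, with a ratio of 0.32. Its mean was 80.2 ± 16.4 TPM (SD over 10 time points) at 0 to 90 min, 111 ± 6.43 TPM at 100 to 190 min and 120 ± 6.59 TPM at 200 to 290 min. All values from 200 min on were above every value before 100 min. snR83, an H/ACA snoRNA, had a ratio of 0.66 and means of 29.4 ± 10.6, 44.5 ± 7.38 and 38.2 ± 4.48 TPM over the same 3 spans. snR49, an H/ACA snoRNA, was instead higher early, with 29.6 ± 21.7, 30.3 ± 15.9 and 11.6 ± 12.5 TPM, and its ranges overlap between the spans. By likeness of rank after this scaling, the 5 features nearest to snR30 among 5136 were FIT3, GRX1, FIS1, GCV3 and LOG1, with Spearman values of 0.87 to 0.88 over 30 time points.

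The comparison of 30 to 50 min with 0 to 20 min follows the culture out of arrest. The U4 snRNA showed the largest rise among members with a mean of at least 10 TPM, with values of 0, 10.1 and 0 TPM at 0 to 20 min and 31.7, 4.91 and 17.4 TPM at 30 to 50 min, a log2 ratio of mean TPM + 1 of 2.12. The values overlap. snR49 (log2 ratio 1.51) and snR3 (1.28), both H/ACA guides, came next. The largest falls were those of snR81 (-1.09), an H/ACA guide for both ribosomal RNA and U2, snR8 (-0.59) and U1 (-0.47). snR33 rose in every library, from 150.2 to 177 TPM before to 269 to 283 TPM after (log2 ratio 0.77), and snR4 had overlapping values (0.02). All values at 30 to 50 min lay above all those at 0 to 20 min for 7 members (15.9%), where 51.9% of all features did. They lay below for 0 members, where 3.42% of features did. After scaling 2 members were above, where 15.1% of features were, and 0 below, where 17.3% were.

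In all, 13 of 44 members (29.5%) were at least 1.5-fold higher at 30 to 50 min, where 23.8% of all features were (6369 features that average 1 TPM or more), and 3 members were as far lower, where 1.81% of features were. The median log2 ratio was 0.16 in members and 0.38 in all features. The median of all features thus moved as well, and median-of-ratios scaling, turned the median of the members to -0.21 and that of all features to -0.02. After scaling 6 members were called higher, with a background of 4.54%, and 7 lower, with a background of 7.49%. snR33 then had a log2 ratio of 0.34, snR4 of -0.45 and snR128 of -0.74. In the deposited table of corrected scores, which sets each feature on a scale of SDs before quantile normalization, 36 of 44 members were above 0 at 0 and at 10 min, where 45.7% and 45.7% of features were. The count was 12 already at 20 min, and 9, 10 and 8 at 30, 40 and 50 min, where at 50 min 48.9% of features were above 0. At 150 min 32 members were above 0, against 48.8% of features. As deposited, members exceeding their own mean TPM numbered 18 in the 0 min library and 15 in the 10 min library. On the scale of SDs, the median of all 44 members was -0.22 and -0.48 in these libraries. The corrected counts of 36 thus do not show that most members had raised TPM there. In the 20 min library 4 members exceeded their mean TPM, and in the 150 min library 39 did. The share of all features exceeding their own mean TPM was not computed, so these counts are not read as a trait of the members.

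The time points 140 and 150 min are high STRIPEs, time points at which levels shift across the transcriptome against their neighbours. A milder high STRIPE is named as 100 min in some places of the study and as 110 min in others, and 100 min is used here. At 110 min 0 members were at least 1.5-fold higher than on either side, where 0.989% of features were, and 7 were lower. The median log2 ratio there was -0.17 in members and -0.11 in all features. After scaling 1 member was higher, where 1.35% of features were, and 4 were lower. The share of all features called lower at 110 min was not computed. The STRIPE detector also marks 0, 10 and 20 min, which are the base of the comparison on leaving arrest. snR46, an H/ACA guide for large-subunit ribosomal RNA, had the largest rise among members with a mean of at least 10 TPM, from 1.57 TPM at 130 min and 10.4 TPM at 160 min to 16.8 and 30.9 TPM at 140 and 150 min (log2 ratio 1.83). snR11 rose from 16.5 and 11.6 TPM to 33.6 and 46.4 TPM (1.45) and snR85 from 20.6 and 3.86 TPM to 20.8 and 45.8 TPM (1.38). As deposited, the values at 140 and 150 min were above both neighbours for all 3, by a narrow margin for snR85 at 140 min. After scaling snR85 was at 18.7 at 140 min, below its 21.5 at 130 min. Among abundant members the log2 ratio was 0.79 for snR33, 0.68 for snR4, 0.36 for snR10, 0.27 for snR7-S, 0.21 for snR31 and 0.17 for snR128. After scaling these ratios were, in the same order, 0.53, 0.43, 0.11, 0.03, -0.04 and -0.08. snR30 was at 103 and 108 TPM against 107 and 118 TPM (-0.10). As deposited, the other members with a negative ratio were the H/ACA guides snR81 (-0.55) and snR34 (-0.32), at means of 11.2 and 12.5 TPM. After scaling 7 members had a negative ratio, where 51.2% of all features had a positive one.

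At least 1.5-fold higher levels were found for 21 of 44 members (47.7%), with a background of 7.13%, and at least 1.5-fold lower levels for 0 members, with a background of 0.942%. snR6 and snR36 are in this count although both their neighbours at 130 and 160 min are listed at 0. Of 28 H/ACA members 15 were called, of 11 C/D members 5 and of 5 snRNAs 1. The median log2 ratio was 0.57 in members and 0.25 in all features. With the shift of all features taken out by scaling, 12 members (27.3%) were called higher, with a background of 2.45%, and 1 lower, with a background of 2.17%, and the median was 0.33. Among features of 150 to 300 bases, 16 of 30 members and 15.0% of 193 other features were called higher. After scaling these were 9 members and 10.9% of the others. The 2 sets were not matched in level. At a mean of at least 30 TPM, 8 of 23 members were called higher, with a background of 2.84%. After scaling 3 of these 23 were, with a background of 0.878%, and their median log2 ratio was 0.15. By order alone, without a fold, both 140 and 150 min were above both neighbours for 28 members (63.6%), where 67.6% of all features were, and below both for 1, where 9.39% were. After scaling the numbers were 18 above, with a background of 32.5%, and 2 below, with a background of 31.4%. The highest time point was 140 or 150 min for 16 members, against 19.9% of features, and after scaling for 13, against 6.96%.

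**Figure D3:**
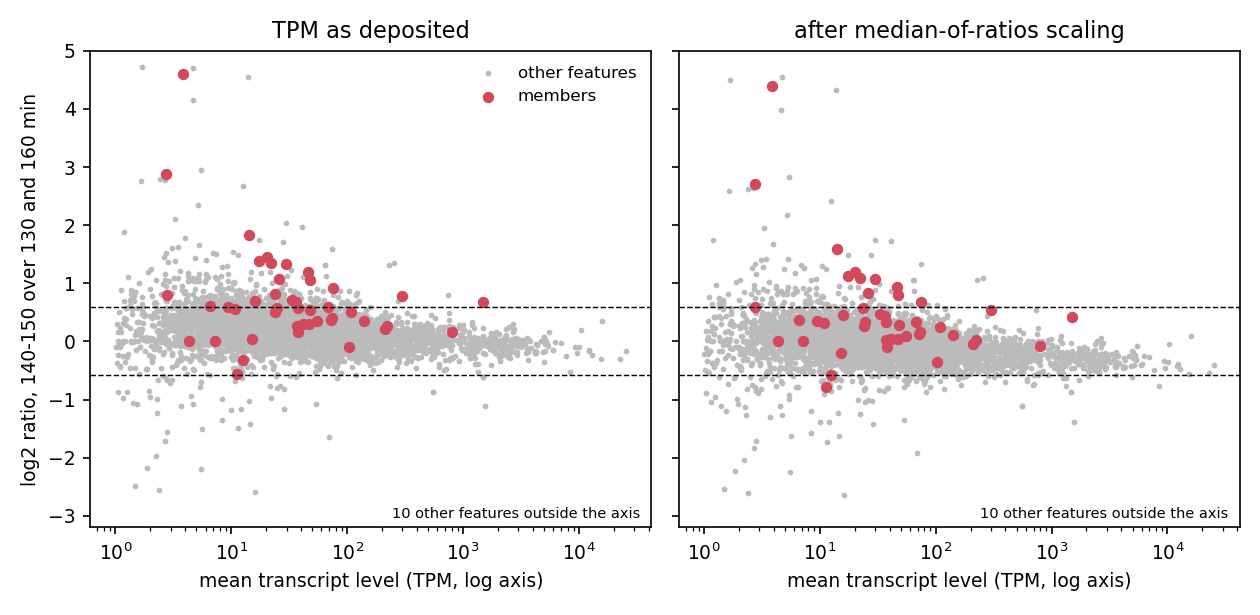
The log2 ratio of mean TPM + 1 at 140 and 150 min over 130 and 160 min against mean transcript level (TPM, log axis), for members (red) and other features averaging 1 TPM or more (grey), as deposited and after median-of-ratios scaling, with dashed lines at 1.5-fold and 10 other features outside each axis. Of 44 members, 21 lie above the upper line on the left and 12 on the right.

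The same 4-point comparison was made at all 27 places in the series to give the spread of the measure. As deposited, 140 and 150 min held the highest count (21), and at the 18 places whose 4 time points hold none of 100, 140 and 150 min the count ran from 1 to 12 with a median of 3. The highest of these, 12, was at 230 and 240 min, where 2.01% of all features were called. After scaling the count at 140 and 150 min (12) equalled that at 230 and 240 min (12), while the median log2 ratio of 0.33 stayed above the highest of the other places, 0.19. Of the members called after scaling, 4 were called at both places, and the share of all features called at both was not computed.

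**Figure D4:**
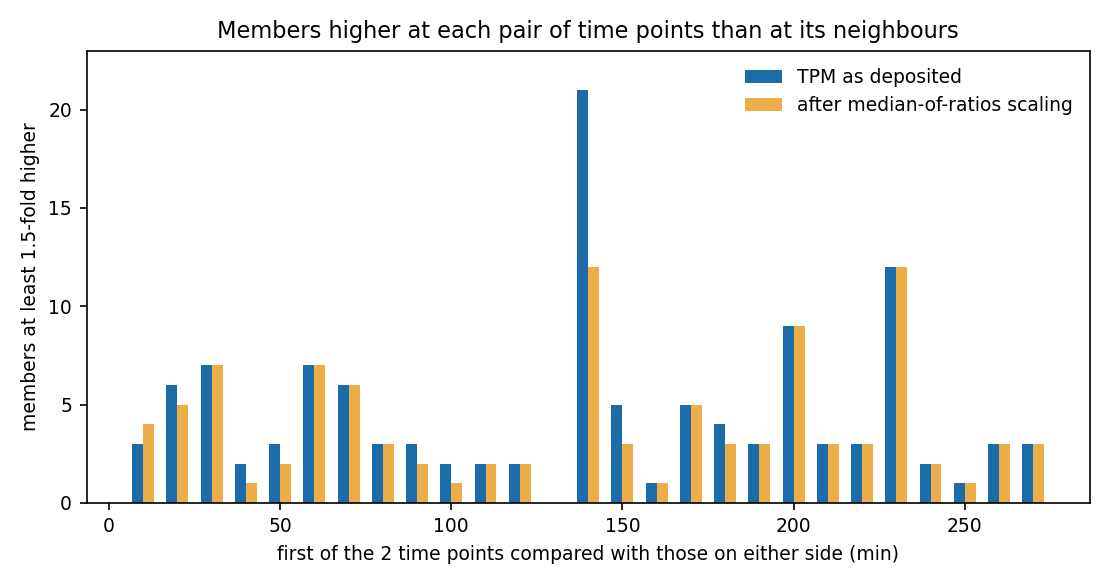
Number of members at least 1.5-fold higher in mean TPM + 1 at 2 successive time points than at the points on either side, by the first of the pair (min), as deposited (blue) and after median-of-ratios scaling (yellow). The bar for 140 and 150 min stands at 21 as deposited and at 12 after scaling, level with 230 and 240 min.

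At 100 min the members split. snR13, a C/D guide, was at 123 TPM between 0 and 90.0 TPM (log2 ratio 1.43), U4 was at 21.8 TPM between 0 and 17.1 TPM (1.26) and snR5 was at 50.9 TPM between 20.3 and 22.99 TPM (1.19). U14 moved the other way, at 540 TPM between 1016 and 954 TPM (-0.87), as did snR34 (-1.28) and snR7-L (-0.63). For U14 this was the lowest value from 30 to 150 min. Higher levels of at least 1.5-fold were found for 14 members (31.8%), with a background of 3.8%, and lower levels for 3, with a background of 1.3%. After scaling 8 were higher, with a background of 2.17%, and 4 lower, with a background of 1.77%. Of the 21 members called at 140 and 150 min, 9 were also called at 100 min (42.9% of 21 and 64.3% of 14), among them snR5, snR11, snR13, snR44 and snR49. After scaling 5 members were called at both, of 12 and 8. The share of all features called at both was not computed, so the overlap is not read as a trait of the members.

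The late part of the series, 250 to 290 min against 160 to 200 min, held few differences. U4 fell from a mean of 27.4 to 9.55 TPM (log2 ratio -1.43), snR49 from 23.1 to 12.1 TPM (-0.88) and snR70 from 37.8 to 21.5 TPM (-0.78), and in each the values of the 2 windows overlap. The largest rises among members with a mean of at least 10 TPM were those of snR13 (0.50), snR43 (0.37) and snR7-L (0.21). The count was 1 member at least 1.5-fold higher (snR36), with a background of 0.565%, and 5 lower, with a background of 0.707%. Without 170, 180 or 260 min in turn, the count higher was 2. After scaling it was 1, with a background of 0.581%, and 3, with a background of 0.581%. All values of one window lay beyond all of the other for 0 members, where 0.455% of features were above in this sense and 5.06% below. After scaling it was again 0 members, with 1.84% and 1.51% of features.

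The time course of snR4 recurred in a small set of other RNAs. After scaling, the features nearest to snR4 in rank among 5136 were RPR1, the RNA of RNase P (Spearman 0.86 over 30 time points), the U1 snRNA snR19 (0.83), the internal spacer ITS1 of the ribosomal RNA precursor (0.76, listed in 2 copies with equal values) and its external spacer ETS1-1 (0.73). As deposited the values were 0.77, 0.83, 0.62 and 0.66. Without 0, 10, 20, 100, 140 and 150 min the scaled value for RPR1 was 0.89 over 24 time points. Without the 2 points of snR4 farthest from its median, 0 and 10 min, Pearson's r with RPR1 went from 0.87 to 0.74. With SCR1, the RNA of the signal recognition particle, snR4 had 0.68 and U14 0.73. With snR33 it had 0.04 and with NME1, the RNA of RNase MRP, -0.05.

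The likeness lay in repeated falls. Scaled RPR1 had local minima at 20, 50, 80, 120, 160, 190, 220 and 250 min, that is, 30 or 40 min apart. snR4 had its minima at exactly these 8 time points, and snR19 at these and at 140 min. Of 5137 features averaging 10 TPM or more, 7 had minima at all 8 (0.136%). They are RPR1 itself, by which the time points were chosen, the 2 copies of ITS1, ETS1-1, YLR154W-E, snR19 and snR4. The other ETS1 entry, ETS1-2 (mean 277 TPM), was not among them. As deposited 7 features had all 8, and 1 of them was a member, snR19, while snR4 lacked the minima at 50 and 250 min. Over these 8 time points the scaled level of snR4 averaged 1163, against 1626 at the 16 time points on either side (log2 ratio -0.48), that of snR19 15.8 against 26.8 (-0.72) and that of RPR1 18.99 against 52.2 (-1.41). snR30 and snR82 had 7 of the 8 minima, with log2 ratios of -0.11 and -0.17. The median ratio was -0.12 in 37 members and 0.00056 in all 5137 features. These time points were picked from the values, so the ratios describe the pattern and are no test of it, and a part of sampling or extraction order in it was not tested.

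**Figure D5:**
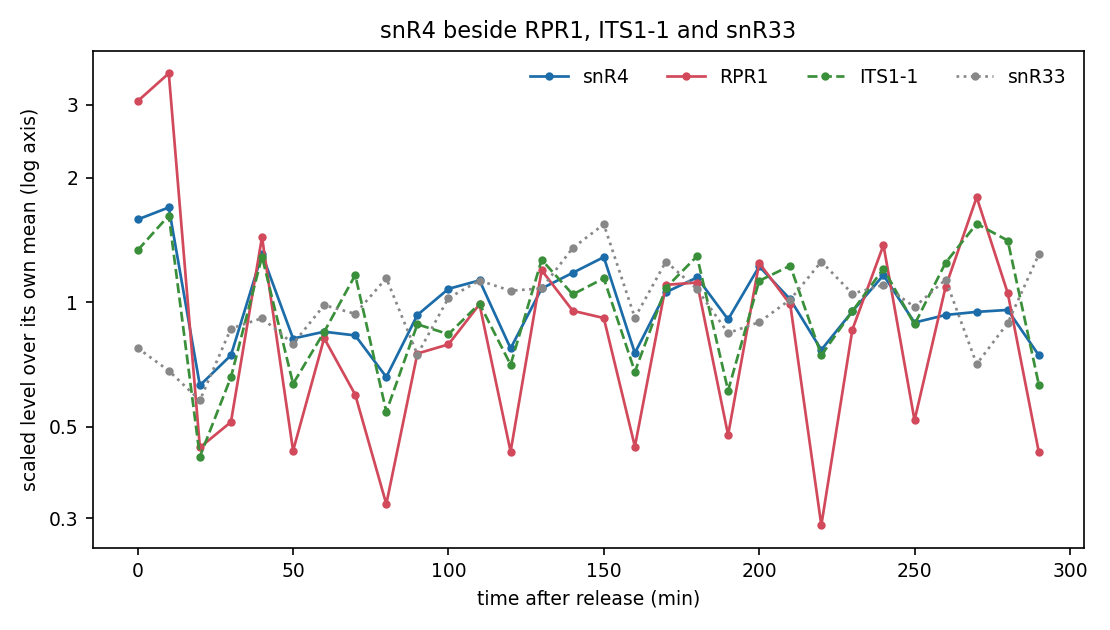
Median-of-ratios scaled level over its own mean (log axis) against time after release (min) for snR4, RPR1, ITS1-1 and snR33, 1 library per point. The first 3 fall together at 20, 50, 80, 120, 160, 190, 220 and 250 min, whereas snR33, with a Spearman correlation of 0.04 with snR4, has 6 of these minima and others besides.

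Other members did not move as 1 group. Over the 253 pairs of 23 members with a mean of at least 30 TPM, the scaled Spearman correlation had a median of 0.15 and ran from -0.52 (snR7-L with snR70) to 0.74 (snR10 with snR31). The pair snR10 and snR31 was at 0.62 as deposited. snR33 followed snR63, a C/D snoRNA (0.63), and NME1 (0.63), but without the 6 time points above these values were 0.45 and 0.43. Since all values come from the same 30 libraries, the correlations share any shift of a library.

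Genomic neighbours could be compared in 1 pair alone. Clusters of snR genes on one strand with gaps of at most 500 bases number 5. snR128 and snR190, which are processed from 1 precursor, were the only neighbours that were both measured. snR128 was 31 times snR190 in mean TPM, with a ratio of 12.3 at 30 min and 108 at 160 min. Their Spearman correlation was 0.17, against a median of 0.16 over all pairs of members, snR6, snR76 and snR87 included. After scaling the values were 0.24 and 0.11. Over pairs of members with a mean of at least 30 TPM, the medians were 0.16 as deposited and 0.15 after scaling. In the cluster of 7 genes from snR78 to snR72, 6 were at 0 and snR76 appeared at 70 min alone. In the cluster snR41, snR70 and snR51, snR70 (164 bases) had a mean of 33.2 TPM and the others, of 95 and 107 bases, were at 0. The clusters of snR67 with snR53 and of snR57, snR55 and snR61 were at 0 throughout.

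Of 8 snoRNAs within introns, 6 were at 0 although their hosts were transcribed, such as snR24 (89 bases) in ASC1 (mean 2384 TPM), snR18 (102 bases) in EFB1 (1874 TPM) and snR39 (89 bases) in RPL7A (1662 TPM). The measured ones were snR44 in RPS22B and snR191 in NOG2. snR44 averaged 47.4 TPM, ranged from 10.9 to 87.6 TPM and had a Spearman correlation of 0.34 with RPS22B, which ranged from 68.1 to 107 TPM. snR191 averaged 16.03 TPM and had a correlation of 0.54 with NOG2. After scaling the values were -0.09 and 0.25. On leaving arrest snR44 had a log2 ratio of 1.045 and its host 0.076. At 140 and 150 min the ratios were 1.05 and 0.24.

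The mRNAs for proteins that bind and make these RNAs were called higher, as deposited, at a share near that of all features at 140 and 150 min and at a lower share on leaving arrest. Of 53 genes in 6 lists (snoRNP core proteins, assembly factors, processing factors, Sm and LSm rings and snRNP proteins), 4 (7.55%) were at least 1.5-fold higher at 140 and 150 min, against the 7.13% of all features, and 0 lower, with a median log2 ratio of 0.28. After scaling 2 were higher (3.77%, background 2.45%). The 8 core proteins, which include Nop1 and Cbf5, held 0 of the 4. They were LSM2 (1.16), SMD2 (0.91) and LSM7 (0.74), which encode ring subunits of snRNPs, and HIT1 (0.69), an assembly factor. On leaving arrest 6 were higher (11.3%, background 23.8%) and 1 lower (1.89%, background 1.81%), with a median of 0.24. Scaling turned this to 2 higher (3.77%, background 4.54%) and 5 lower (9.43%, background 7.49%), with a median of -0.19. Among the lower were 3 of the 4 H/ACA core proteins. The 1 lower as deposited was NRD1, which acts in ending snoRNA transcription, at a log2 ratio of -1.38, against 1.62 for LSM2. At 100 min 3 were higher (5.66%, background 3.8%), 1 after scaling (1.89%, background 2.17%), and late in the series 0 in either direction.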

How the data were processed

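The members and gene lists were chosen with earlier results of these data known. Per the labels, the authors aligned reads with STAR to the R64 build and quantified them with RSEM, and they deposited TPM values, with versions not given in the sources used here. The authors also deposited corrected values, Z-score quantile normalized, in units of a score for 6622 features, of which all 44 members are part. TPM keep no depth, so depth is unknown and no counting interval is given. Times were taken from the labels.

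All 81 snR identifiers matched R64 by symbol, and classes came from a list written by hand. Windows were compared as the log2 ratio of mean TPM with a pseudocount of 1, over features averaging 1 TPM or more, and called at 1.5-fold. Median-of-ratios factors used features above 0 at every time point. Alternatives changed the scaling, pseudocount, filter, fold and time points. Named were the 6 most abundant members, the 3 largest rises and falls in each window among members with a mean of at least 10 TPM, all snRNAs, U3, U14, snR10, snR30, snR46, snR190, and members in introns or clusters, and others, such as snR36, snR76, snR82 and snR83, were chosen after their values were seen. The minima, the short features, the other places in the series and the 3 spans of 10 time points were added after seeing the data. Of the list of other non-coding RNAs, TLC1 was not analysed here. Genes that share sequence (snR7-L with snR7-S, snR17a with snR17b) divide reads uncertainly, and snR10 and snR17a overlap open reading frames YGL088W and IRC13 on the same strand, at means of 0.937 and 0.339 TPM. Code was run with Python 3.11.15, numpy 2.4.6, pandas 2.3.3 and matplotlib 3.10.9 and tested on simulated data.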

Additional observations from a re-analysis of the deposited data

How the results depend on the processing

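No paired analysis was possible because a single library was made per time point. Of 66 alternative values, 49 stayed close to those reported and 17 moved, where close is within 1.5 times for a count, within 1 SD for the summed level and the successive-difference ratio, and equal to 2 decimals for a correlation. With median-of-ratios factors, the number of members at least 1.5-fold higher was 6 of 44 on leaving arrest (13 as reported), 12 at 140 and 150 min (21) and 8 at 100 min (14). At 2-fold it was 6, 10 and 7. With a pseudocount of 10 TPM it was 8 at 100 min and 0 late in the series, where the reported count is 1 and a filter at a mean of 10 TPM also gave 0. Leaving out 1 time point at a time gave 11 to 14 on leaving arrest, 15 to 24 at 140 and 150 min, 10 to 14 at 100 min (100 min itself could not be left out) and 1 to 2 late in the series. The summed level, with a median of 4439 TPM, was 2974 TPM without snR4. The correlation of snR128 with snR190 was 0.17, 0.24 with median-of-ratios factors, 0.16 with open reading frames alone set to 1000000 and 0.14 without 0, 10, 20, 100, 140 and 150 min. The median correlation of snR44 and snR191 with their hosts fell from 0.44 to 0.077 with median-of-ratios factors. The cause of these changes was not tested, beyond what each setting changes by its construction. With 1 library a time point and many members under 30 TPM, single ratios of low members are loosely set.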
